A study of Homo sapiens with 18 samples.

Results

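These data compare the AlkB-treated m1A immunoprecipitates (IP) of TRMT61A knockdown and vector cells, 6 libraries out of 18 in the series. They were chosen by their labels, which give 3 knockdown libraries (sh61A, genotype TRMT61A knockdown) and 3 vector libraries (Vector, genotype TRMT61A wildtype). Both groups are WPMY-1, a myofibroblast line from human prostate stroma that has been immortalised, and both went through the same antibody capture and the same AlkB treatment. The remaining 12 libraries are the AlkB-untreated part of each IP and the inputs of both lines. The labels name 1 shRNA code, give no level of TRMT61A and leave unsaid whether the 3 libraries of a line were grown separately. The p-values therefore measure the scatter of these libraries, part of which may be technical. The knockdown itself and the markers of the cell line were not checked, since mRNA is not analysed here.

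N1-methyladenosine (m1A) carries a methyl group on the face of the base that pairs, so reverse transcriptase stops at it or misreads it. In cytosolic tRNAs the complex of TRMT6 and TRMT61A, its catalytic subunit, places m1A at position 58 of the T loop, where it helps to hold the folded shape of the tRNA and is best known for stabilising the initiator methionine tRNA. AlkB is a bacterial enzyme that removes the methyl group, so that AlkB-treated RNA should be copied with fewer stops and fewer misread bases, and what is left is called residual mismatch here. The comparison asks whether residual mismatch, coverage and passage of the polymerase through position 58 differ between knockdown and vector once the RNA has been demethylated.

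The table gives, for every listed adenosine, the number of reads that cover it and the number of those with a mismatch. After 6 lines with repeated counts were counted once, 719 adenosines in 180 tRNA genes of 45 anticodon families remained. Of these, 91 sit at position 58, 16 at position 9, 61 at position 14, 4 at the wobble position 34, 5 at position 37 and 542 elsewhere. Positions 9 and 14 stand here for the gene nucleotide of that number or either neighbour, so each is a window and not 1 standard position. Reads summed over sites were 848566, 489127 and 115571 in the knockdown libraries and 186534, 331823 and 373024 in the vector libraries. The deepest and the shallowest library are thus both knockdown libraries. Counts end near 8000 reads a site, from which a read cap is inferred here, since no source states one. Among the AlkB-treated libraries, 35 sites in knockdown replicate 1 and 20 in knockdown replicate 2 had at least 7900 reads. No site of AlkB-treated knockdown replicate 3 or of the AlkB-treated vector libraries did. Untreated IP libraries of both lines reached the cap too, as given below. Those 35 sites lie in Gly-GCC (15), Gln-CTG (12), Gly-CCC (5), Gln-TTG (2) and Arg-ACG (1) genes, and the 20 of knockdown replicate 2 are the Gly-GCC and Gly-CCC ones, so both glycine families are limited in both libraries and the others in replicate 1.

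The genes on which the results turn are given here as the deposited gene sequences (hg38, 5′ to 3′, DNA letters). The capital A nearest the 3′ end in the T loop marks position 58, which lies 15 nucleotides before the end of the gene; a further capital A marks another adenosine described in the text. Adenosines are otherwise numbered from the first base of the gene, introns included. Tyr-GTA-5-4 (chr14:20663192-20663285, minus strand), Tyr-GTA-2-1 (chr2:27050782-27050870, plus strand) and Tyr-GTA-8-1 (chr6:26575570-26575659, plus strand) are shown because their passage through position 58 stood apart. Gln-CTG-5-1 (chr6:27295433-27295504, plus strand) is a deeply covered position-58 gene, iMet-CAT-1-1 (chr1:153671250-153671321, plus strand) is the initiator, and Leu-CAA-3-1 (chr6:27602569-27602675, minus strand) holds the site with the lowest p. Val-AAC-1-1 (chr3:169772230-169772302, plus strand), Arg-ACG-2-1 (chr3:45688999-45689071, minus strand) and Gly-TCC-2-1 (chr1:146037061-146037132, plus strand) hold the sites with high mismatch.
Tyr-GTA-5-4: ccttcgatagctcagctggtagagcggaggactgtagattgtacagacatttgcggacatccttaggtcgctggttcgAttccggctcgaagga
Tyr-GTA-2-1: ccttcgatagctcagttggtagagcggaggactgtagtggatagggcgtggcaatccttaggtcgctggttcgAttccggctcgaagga
Tyr-GTA-8-1: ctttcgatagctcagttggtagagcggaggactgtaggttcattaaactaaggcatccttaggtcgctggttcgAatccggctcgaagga
Gln-CTG-5-1: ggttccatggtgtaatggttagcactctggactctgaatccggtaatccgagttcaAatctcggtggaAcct
iMet-CAT-1-1: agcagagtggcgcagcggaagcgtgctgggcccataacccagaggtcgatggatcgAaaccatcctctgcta
Leu-CAA-3-1: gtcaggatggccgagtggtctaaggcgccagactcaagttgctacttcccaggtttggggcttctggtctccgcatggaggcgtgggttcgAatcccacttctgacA
Val-AAC-1-1: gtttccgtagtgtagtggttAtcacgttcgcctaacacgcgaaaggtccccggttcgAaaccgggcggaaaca
Arg-ACG-2-1: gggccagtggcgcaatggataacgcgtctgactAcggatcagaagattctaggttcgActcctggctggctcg
Gly-TCC-2-1: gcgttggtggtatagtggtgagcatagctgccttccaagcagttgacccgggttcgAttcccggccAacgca

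Residual mismatch at position 58 was below 1% in all 6 libraries and was not separated between the lines. Pooled over the 58 position-58 sites that had 20 reads or more in every library, it was 0.603%, 0.562% and 0.736% in the knockdown libraries and 0.619%, 0.654% and 0.681% in the vector libraries. The vector values all lie within the knockdown range. The means were 0.634% ± 0.0911 in knockdown and 0.652% ± 0.0311 in vector (SD, n = 3 each; exact permutation test, two-sided, p = 0.8), and 3 against 3 libraries cannot give an exact p below 0.1. The median over the same sites was 0.643%, 0.546% and 0.827% in knockdown and 0.507%, 0.604% and 0.699% in vector (exact permutation p = 0.6). Of the 58 sites 29 were higher and 29 lower in knockdown. In 4 of them the knockdown libraries all lay above the vector libraries and in 3 all below, where 3.90% and 4.18% of all 359 tested sites did so, 8.08% together. The classes with less mismatch overlapped between the lines too. Position 9, which TRMT10C methylates in mitochondrial tRNAs (none is listed here), had 0.213%, 0.243% and 0.232% in knockdown and 0.284%, 0.0876% and 0.198% in vector over 12 sites. The 8 deepest position-9 sites lie in 5 alanine and 3 valine genes. In Ala-TGC-3-2 position 9 was mismatched in 3 of 270, 9 of 2323 and 0 of 342 reads in knockdown and in 0 of 555, 1 of 255 and 2 of 167 in vector, so it rests on few mismatched reads. Position 14, the window around a conserved adenosine of the D arm, had 0.349%, 0.225% and 0.244% in knockdown and 0.282%, 0.351% and 0.331% in vector over 29 sites.

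No single adenosine changed its mismatch past the threshold. The quasi-binomial test called 0 of 359 sites after Benjamini-Hochberg adjustment (0% called), with 31 sites at an unadjusted p below 0.05 (8.64%), 19 of them higher (5.29%) and 12 lower (3.34%) in knockdown. limma on logit rates and on untransformed rates also called 0 sites, with 14 and 13 at an unadjusted p below 0.05. With the quasi-binomial dispersion, the scatter relative to counting error, held at 1 or more, only 3 sites had an unadjusted p below 0.05. The lowest adjusted p was then 0.975, so most of the low p-values rest on scatter estimated below counting error. The lowest adjusted p, 0.0752 by the quasi-binomial test, belonged to the last base of Leu-CAA-3-1, A107, with 4 mismatches in 1937 reads, 1 in 513 and 1 in 341 in knockdown and 0 in 158, 0 in 474 and 0 in 707 in vector. These are 6 mismatched reads in all, and 3 counts of the 1339 vector reads would be a rate of 0.224%, against 0.215% in knockdown.

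Among the deepest position-58 sites, Gln-CTG-5-1 was the one whose libraries did not overlap. Its position 58 had 0.462%, 0.459% and 0.441% mismatch in the knockdown libraries and 0.533%, 0.817% and 0.649% in the vector libraries, a difference of -0.212 percentage points (quasi-binomial unadjusted p = 0.0154, adjusted p = 0.424). In the same tRNA A69, in the 3′ acceptor strand, had 0.0874%, 0.120% and 0.140% in knockdown and 0.238%, 0.190% and 0.212% in vector, again with all knockdown libraries below the vector ones (quasi-binomial adjusted p = 0.424). Gln-CTG-1-4, a gene of the same family with similar depth, had 0.450%, 0.554% and 0.537% in knockdown and 0.423%, 0.615% and 0.499% in vector at position 58. The other glutamine genes overlapped as well, and the 7 glutamine genes pooled had 0.524%, 0.479% and 0.819% in knockdown and 0.538%, 0.608% and 0.630% in vector. Reads of near-identical gene copies may be shared among them, so values of single copies are uncertain. Thr-CGT-4-1 had 0 mismatches in 140, 329 and 26 reads at position 58 in knockdown and 2 in 117, 2 in 180 and 1 in 264 in vector, which rests on 5 mismatched reads.

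The initiator tRNA iMet-CAT-1-1 overlapped between the lines at position 58, with 0.230%, 0.339% and 0.849% in knockdown and 0.315%, 0.812% and 0.195% in vector. Arg-ACG-2-1 had 0.637%, 0.616% and 0.472% in knockdown and 0.161%, 0.284% and 0.570% in vector, so the highest vector library lay inside the knockdown range. Tyr-GTA-5-4, the deepest tyrosine gene, had 0.504%, 1.23% and 0.379% in knockdown and 0.541%, 0.855% and 0.857% in vector. Summed by amino acid, position 58 overlapped between the lines for all 15 isotypes with a site in the test. Means ran from 0.164% ± 0.284 for tryptophan to 0.891% ± 0.425 for cysteine in knockdown, and in vector alanine averaged 1.14% ± 0.242 (SD, n = 3 each). Tryptophan rests on 2 mismatched reads in knockdown and 1 in vector.

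The parts of the tRNA differed from each other more than the lines did. Within each of the 6 libraries position 58 had more mismatch than the 3′ acceptor strand, with means of 0.643% ± 0.0616 and 0.204% ± 0.0256 (SD, n = 6, higher in 6 of 6, exact sign-flip p = 0.0312, the smallest 6 libraries allow, adjusted p = 0.0391 over 5 such comparisons). A67 of Gly-TCC-2-1, a site with high mismatch described below, is left out of this strand. Position 58 also lay above position 14 (0.297% ± 0.0547) and position 9 (0.210% ± 0.0666) in 6 of 6 libraries. It did not stand above every other part. The anticodon and variable part, which here takes in the 5′ strand of the T stem, had 0.822%, 0.474% and 0.888% in knockdown. In vector that part had 0.787%, 0.463% and 0.729%, so it lay above position 58 in some libraries and below it in others. The 5′ acceptor strand averaged 0.527% in knockdown and 0.552% in vector. Neither was among the 5 comparisons. Position 58 was however not the highest base of the T loop. In the 22 tRNAs with an adenosine at both places, position 57 had 0.841% ± 0.0717 and position 58 had 0.622% ± 0.10 (SD, n = 6, position 57 higher in 6 of 6 libraries, exact sign-flip p = 0.0312, adjusted p = 0.0391). Position 59 and position 58 did not separate in the 36 tRNAs that have both, with 0.603% and 0.596% (higher in 3 of 6 libraries, exact sign-flip p = 0.844).

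Of 10 parts of the tRNA compared between the lines, 2 had libraries that did not overlap. Position 59, next to the methylated base, had 0.653%, 0.610% and 0.735% in knockdown and 0.556%, 0.528% and 0.534% in vector over 40 sites. It was higher in knockdown by 0.127 percentage points (exact permutation p = 0.1, adjusted p = 0.5 over the 10 parts). Without nucleotide 21 of the Val-AAC and Val-CAC genes, the D arm outside position 14 had 0.127%, 0.123% and 0.125% in knockdown and 0.147%, 0.198% and 0.157% in vector over 45 sites, a difference of -0.0422 percentage points with the same exact permutation p and adjusted p. The nucleotide left out had 36.6%, 26.5% and 12.2% mismatch in knockdown and 30.3%, 22.9% and 24.6% in vector. The D arm with it included was not compared, so the separation is given only for the sites without it. Position 57 had 0.835% ± 0.0227 in knockdown and 0.847% ± 0.111 in vector, and the 3′ acceptor strand without A67 of Gly-TCC-2-1 had 0.198% ± 0.0301 in knockdown and 0.210% ± 0.0250 in vector (SD, n = 3 each). Both of these overlapped.

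**Figure D1:**
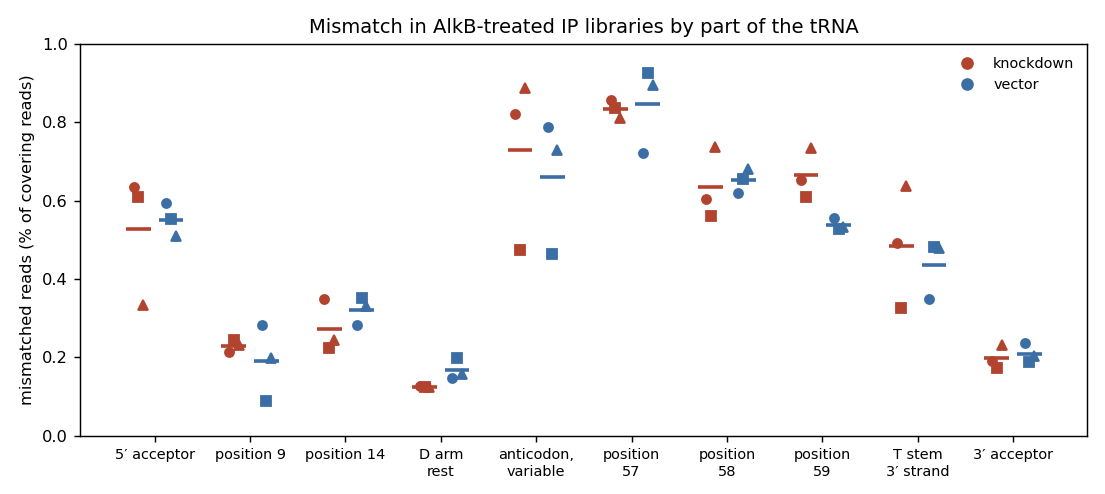
Mismatched reads as a percentage of covering reads (y axis) in 10 parts of the tRNA (x axis), in knockdown (red, left of each pair) and vector (blue, right) AlkB-treated IP libraries; circle, square and triangle are replicates 1, 2 and 3 and the bar is the mean, without A21 of valine tRNAs and A67 of Gly-TCC-2-1. The T-loop positions lie above the D arm and the 3′ acceptor strand, and the lines separate at position 59 and in the rest of the D arm. The part named for the 3′ strand of the T stem includes the T-loop bases outside positions 57 to 59.

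The level of residual mismatch at position 58 was close to that without AlkB. Over the 39 sites with at least 20 reads in all 12 IP libraries, the AlkB-treated part had 0.625% ± 0.0859 in knockdown and 0.607% ± 0.104 in vector (exact permutation p = 0.9), and the untreated part had 0.567% ± 0.0784 in knockdown and 0.633% ± 0.0208 in vector (SD, n = 3 each; exact permutation p = 0.2). Over the 30 sites that all 18 libraries cover, input had 0.616% ± 0.174 in knockdown and 0.557% ± 0.106 in vector, beside 0.621% in knockdown and 0.602% in vector in the treated part. The ranges of treated, untreated and input libraries overlap in each line. In the untreated part of these 30 sites the lines did not overlap, with 0.604%, 0.477% and 0.606% in knockdown and 0.640%, 0.617% and 0.618% in vector (exact permutation p = 0.1), and in the treated part they did.

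The 8 tested sites with the highest mismatch all lie outside the T loop. Nucleotide 21 of the Val-AAC and Val-CAC genes, in the D arm, had 36.6%, 26.5% and 12.2% mismatch in the knockdown libraries and 30.3%, 22.9% and 24.6% in the vector libraries, pooled over 7 genes with enough reads. The knockdown libraries spread on both sides of the vector libraries, with 25.1% ± 12.3 in knockdown and 25.9% ± 3.88 in vector (SD, n = 3 each; exact permutation p = 1). In each of the 7 genes replicate 3 was the lowest knockdown library. Val-AAC-1-1 had 36.5%, 26.1% and 7.87% in knockdown and 28.2%, 19.7% and 26.5% in vector, and Val-CAC-1-7 had 35.9%, 28.9% and 10.4% in knockdown and 25.0%, 27.1% and 19.0% in vector. Over 8 valine genes the treated values were 26% ± 12.5 in knockdown and 26.2% ± 3.55 in vector. The untreated part of the same IPs had 28.6%, 35.8% and 36.4% in knockdown and 25.3%, 23.8% and 18.5% in vector, so there the lines did not overlap (exact permutation p = 0.1). Input had 34.9% ± 6.78 in knockdown and 41.1% ± 0.980 in vector (SD, n = 3 each).

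**Figure D2:**
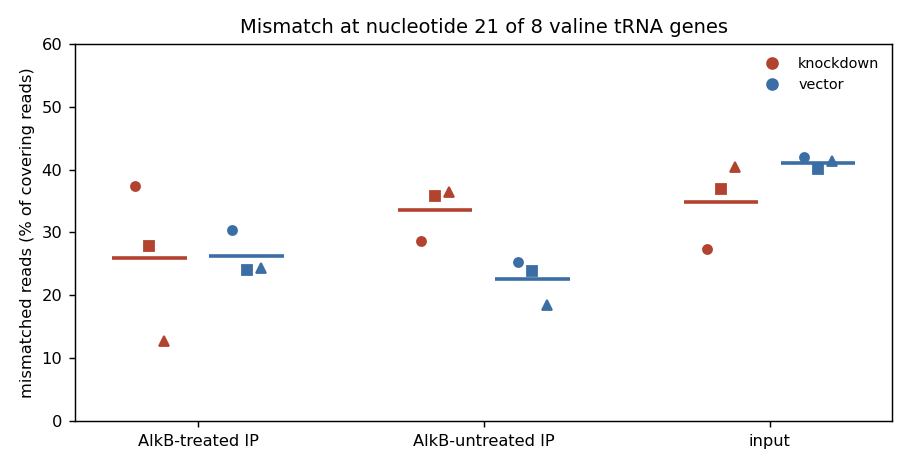
Mismatched reads at nucleotide 21 as a percentage of covering reads (y axis), summed over 8 Val-AAC and Val-CAC genes, in AlkB-treated IP, AlkB-untreated IP and input libraries (x axis) of knockdown (red, left) and vector (blue, right); symbols are replicates 1 (circle), 2 (square) and 3 (triangle) and bars are means. In the treated part knockdown spans 12.7% to 37.4% and vector 24.0% to 30.3%.

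A67 of Gly-TCC-2-1, in the 3′ acceptor strand, varied more than any other tested site. It was mismatched in 16 of 342, 98 of 105 and 6 of 31 reads in knockdown and in 108 of 112, 34 of 38 and 47 of 196 reads in vector. Each line thus has libraries above 89% and libraries below 25%, and A68 of the same gene, with the same reads, had 1 mismatch in 824. The wobble adenosine A34 of Arg-ACG-2-1, which the ADAT2 and ADAT3 deaminase turns into inosine and sequencing reads as G, was mismatched in 77 of 86 reads in knockdown and 15 of 16 in vector, 90.2% over all 6 libraries (95% exact binomial interval 82.7% to 95.2%, counting error only). No wobble or position-37 site reached 20 reads in every library, and neither class was tested. The best covered site of the position-37 class, A36 of Gly-GCC-3-1, had 0 mismatches in 462 reads, which allows a rate of up to 0.649%.

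Gly-GCC, the most covered family, held a smaller share of reads in every knockdown library, but no family passed the edgeR test. Gly-GCC held 19.2%, 31.0% and 18.7% of site reads in the knockdown libraries and 32.2%, 32.6% and 34% in the vector libraries. All knockdown shares lie below the vector shares, with a log2 fold change of -0.85 (SE 0.27, edgeR quasi-likelihood test with Benjamini-Hochberg adjustment, adjusted p = 0.180). Gly-CCC had 5.01%, 8.31% and 5.42% in knockdown and 8.02%, 8.92% and 9.39% in vector, a log2 fold change of -0.82 with 1 knockdown library inside the vector range. The inferred cap touches both families in knockdown replicates 1 and 2. With every site that reached 7900 reads left out, Gly-GCC still had 7.57%, 11.8% and 5.76% in knockdown and 15%, 12.7% and 13.7% in vector, and Gly-CCC had 0.433%, 0.229% and 0.521% in knockdown and 0.887%, 1.23% and 0.921% in vector (exact permutation p = 0.1 for each). Coverage here joins the amount of a tRNA, its capture by the antibody and the length of its cDNAs, and fewer cells and less RNA per cell cannot be told apart in bulk RNA.

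The edgeR quasi-likelihood test called 0 of 43 anticodon families (0% called), with 6 at an unadjusted p below 0.05 (14%), 2 higher and 4 lower in knockdown. DESeq2 called 3 of 42 families (7.14%). These were Ile-TAT, with 0.0739%, 0.0865% and 0.0346% of site reads in knockdown and 0.0161%, 0.00753% and 0.00938% in vector; His-GTG, with 0.327%, 0.572% and 0.0632% in knockdown and 0.0890%, 0.0145% and 0.0204% in vector; and Arg-CCT, with 0.115%, 0.0771% and 0.116% in knockdown and 0.280%, 0.262% and 0.225% in vector (DESeq2 adjusted p = 0.0204 for each, edgeR adjusted p = 0.180 for each). Ile-TAT and Arg-CCT did not overlap between the lines, and knockdown replicate 3 of His-GTG lies inside the vector range. Without overlap 3 families were higher in knockdown and 3 lower (6.98% each). The higher ones were Ile-TAT, Val-CAC and the initiator, of which Val-CAC overlapped once sites at the cap were left out (7.63%, 5.94% and 5.44% in knockdown and 3.52%, 6.09% and 4.07% in vector), and the lower ones were Gly-GCC, Arg-CCT and Arg-TCG, the last with only 30, 2 and 3 reads in knockdown and 41, 125 and 23 in vector.

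The initiator iMet-CAT held 4.00%, 2.30% and 2.67% of site reads in the knockdown libraries and 1.99%, 1.75% and 1.80% in the vector libraries. It was higher in every knockdown library, with 2.99% ± 0.892 in knockdown and 1.85% ± 0.122 in vector (SD, n = 3 each; exact permutation p = 0.1; edgeR log2 fold change 0.38, SE 0.36, adjusted p = 0.548). Gln-TTG was high in 2 knockdown libraries, with 7.30%, 2.33% and 10.8% in knockdown and 2.04%, 2.78% and 2.78% in vector, and knockdown replicate 2 lies inside the vector range. Tyr-GTA had 9.70%, 6.59% and 10.5% in knockdown and 12.7%, 8.88% and 7.55% in vector. By amino acid, glycine took 29.3% ± 8.70 of site reads in knockdown and 41.9% ± 1.61 in vector, and serine 2.47% ± 0.255 in knockdown and 3.03% ± 0.522 in vector, both lower without overlap (SD, n = 3 each; exact permutation p = 0.1). Besides the initiator, which was higher, these were the only ones of 22 isotypes without overlap, and the exact p was not adjusted over the isotypes. The glycine sum includes sites at the inferred cap in knockdown replicates 1 and 2.

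**Figure D3:**
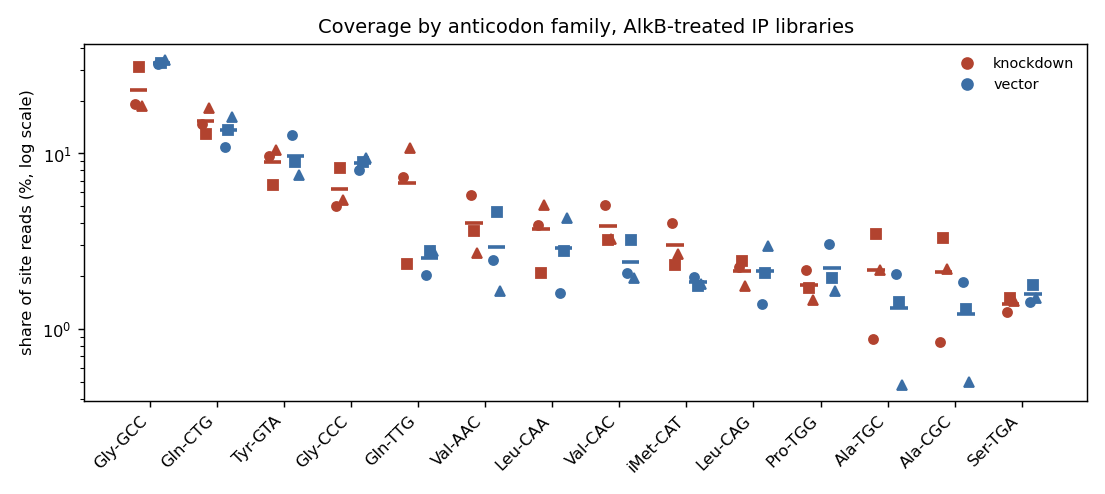
Share of all site reads (y axis, percent, log scale) for the 14 anticodon families with the most reads (x axis), in knockdown (red, left of each pair) and vector (blue, right) AlkB-treated IP libraries; circle, square and triangle are replicates 1, 2 and 3 and bars are means. Gly-GCC is lower and iMet-CAT and Val-CAC are higher in every knockdown library, although Val-CAC overlaps when sites at the inferred cap are left out.

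Across single adenosines edgeR called 0 of 556 for coverage (0% called), with 23 at an unadjusted p below 0.05 (4.14%), and DESeq2 called 3 of 552 (0.543%). The lowest p was at position 58 of Val-CAC-2-1, with 867, 485 and 96 reads in knockdown and 21, 27 and 39 in vector (edgeR log2 fold change 3.17, adjusted p = 0.350; DESeq2 log2 fold change 3.09, adjusted p = 0.000861). The other two DESeq2 calls were A12 and A14 of His-GTG-1-4, both higher in knockdown. At Val-CAC-2-1 every knockdown library had more reads there than every vector library. The site calls depended on knockdown replicate 2: without it edgeR called 30 of 583 sites. The 24 lower ones were 19 in Gly-GCC and 5 in Gly-CCC, and the 6 higher ones were all in Gln-TTG. All lower ones lie in Gly-GCC-1-1, Gly-GCC-2-1, Gly-GCC-3-1, Gly-GCC-5-1 and Gly-CCC-1-1. Neighbouring adenosines are covered by the same reads: A20 and A22 of Gly-GCC-1-1 had equal counts in every library. These are therefore not 24 separate observations. Many of the lower sites were at the inferred cap in knockdown replicate 1, which stays in this setting. A20 had 8015 reads there in Gly-GCC-3-1 and 8014 in Gly-CCC-1-1, so such counts may be held down. A20 of Gly-GCC-1-1, also called, was below it with 7301. Near-identical copies may share these reads. Knockdown replicate 2 is the knockdown library whose Gly-GCC and Gln-TTG shares are nearest to vector. It also differs along the molecule: sites at least 36 nucleotides from the 3′ end took 28.9%, 52.2% and 33.5% of reads in knockdown and 45.3%, 47.5% and 48.9% in vector. The 3′ strand of the T stem was grouped with the T-loop bases outside positions 57 to 59. This group took 5.81%, 3.38% and 4.00% in knockdown and 3.0%, 3.08% and 3.02% in vector, higher in every knockdown library (exact permutation p = 0.1, adjusted p = 0.436 over 12 regions).

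Passage through position 58, the number of reads at that base over the number at the 3′ end of the same tRNA, did not separate between the lines after AlkB. Summed over 66 tRNAs it was 62.8%, 67% and 46.1% in the knockdown libraries and 47.0%, 71.6% and 71.5% in the vector libraries. The lowest values are knockdown replicate 3 and vector replicate 1, the shallowest library of each line. The means were 58.6% ± 11.1 in knockdown and 63.4% ± 14.2 in vector (SD, n = 3 each; exact permutation p = 0.5), so knockdown minus vector was -4.72 percentage points. The sign depends on the mix of tRNAs: with each tRNA given its vector weight the difference was 1.39 points. In the untreated part the same sum was 61.4%, 57.6% and 69% in knockdown and 54.6%, 84.0% and 81.6% in vector. The step over the methylated base itself, reads at position 58 over reads at position 59, was 84.1%, 76.6% and 59.6% in knockdown and 76.2%, 81.1% and 82.2% in vector (exact permutation p = 0.7). In untreated IP RNA the step was similar, 76.1% ± 5.22 in knockdown and 80.6% ± 5.43 in vector. In input it was lower, with 25.1% ± 1.59 in knockdown and 17.9% ± 0.558 in vector, and higher in every knockdown library (SD, n = 3 each; exact permutation p = 0.1). The inferred cap limits the untreated sum and step as well. At least 7900 reads were reached by 36, 0 and 25 sites in untreated knockdown and by 29, 36 and 25 in untreated vector. No input site reached that count, so untreated and input values differ in this limit. Its effect on the ratios was not tested.

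By tRNA, limma called 0 of 44 (0% called), with 0 at an unadjusted p below 0.05 and a lowest adjusted p of 0.769; 14 tRNAs were higher and 30 lower in knockdown. Ala-TGC-3-2 was the 1 tRNA whose libraries did not overlap (2.27% lower without overlap, 0% higher), with 84.2%, 78.5% and 97.3% in knockdown and 98.7%, 99.9% and 98.4% in vector. Tyr-GTA-8-1 had the lowest p, with 37.8%, 78.4% and 69.9% in knockdown and 12.5%, 33.9% and 39.5% in vector (log2 fold change 1.21, SE 0.54, limma adjusted p = 0.769), and 1 knockdown library lies inside the vector range. Val-CAC-2-1 had 61.7%, 97.0% and 93.2% in knockdown and 12.5%, 79.4% and 60.9% in vector. Gln-CTG-4-1 had 71.4%, 54.3% and 37.1% in knockdown and 22.8%, 49.7% and 31.6% in vector, but its 3′ end was at the cap with 8000 reads in knockdown replicate 1.

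Among the tRNAs with lower values in knockdown, none of which passed the test, Leu-CAA-4-1 had 44.5%, 69.4% and 33.5% in knockdown and 53.6%, 78.1% and 114% in vector (limma log2 fold change -0.74). Values above 100% arise where more reads cover position 58 than the 3′ end. Gly-TCC-2-1 had 3.22%, 61.9% and 35.5% in knockdown and 54.5%, 50.0% and 90.3% in vector, with 31 to 342 reads at its 3′ end in knockdown and 38 to 196 in vector. Gln-TTG-2-1 had 48.5%, 31.7% and 11.1% in knockdown and 36.2%, 51.3% and 61.3% in vector. Gln-TTG-1-1 had 68.1%, 62.7% and 18.2% in knockdown and 67%, 80.6% and 72.3% in vector, so knockdown replicate 3 is the lowest library, and the 3′-end count of 7961 reads in knockdown replicate 1 is at the cap. Gly-GCC-2-1 was almost equal, with 60.3%, 62.7% and 82.9% in knockdown and 67.5%, 76.0% and 61.1% in vector.

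**Figure D4:**
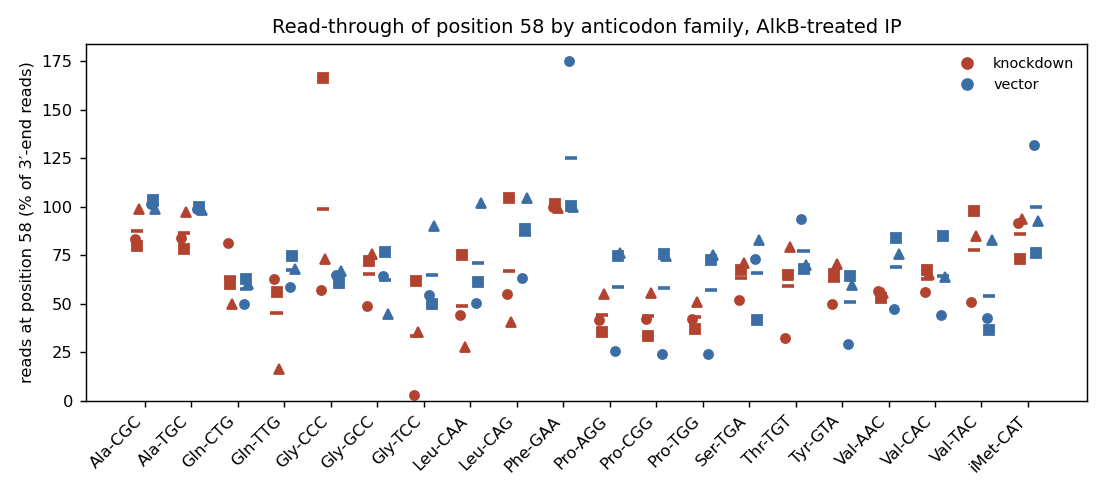
Reads at position 58 as a percentage of reads at the 3′ end (y axis) for 20 anticodon families (x axis), in knockdown (red, left of each pair) and vector (blue, right) AlkB-treated IP libraries; circle, square and triangle are replicates 1, 2 and 3 and bars are means. The libraries of the lines overlap in all families but Ala-TGC, where knockdown has 84.2%, 78.5% and 97.3% and vector 98.7%, 99.9% and 98.4%.

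Tyrosine tRNAs had the lowest p for a change of the knockdown difference with AlkB treatment, and these calls depended on the libraries used. A limma test of that change, the knockdown-minus-vector difference in the treated part minus the same difference in the untreated part, called 2 of 38 tRNAs (5.26%), Tyr-GTA-5-4 and Tyr-GTA-2-1. With a block for each IP, whose treated and untreated parts come from the same RNA, it called these and Tyr-GTA-8-1, in the opposite direction (limma adjusted p = 0.0466 for each); with the replicate number as the block it called Tyr-GTA-8-1 alone (limma adjusted p = 0.0639 for the pair). In AlkB-treated RNA the reads of Tyr-GTA-5-4 at position 58 were 58.5%, 71.9% and 77.1% of those at its 3′ end in knockdown and 38.1%, 74.2% and 65.2% in vector, which overlap. In untreated RNA they were 51.2%, 18.6% and 56.4% in knockdown and 3.39%, 7.33% and 3.10% in vector, where every knockdown library lies above every vector library. The change was -2.85 on the log2 scale (SE 0.70, limma adjusted p = 0.0413). Tyr-GTA-2-1, which shares its last 36 bases with Tyr-GTA-5-4, had 58.7%, 71.2% and 75.7% in knockdown and 38.4%, 71.6% and 64.6% in vector after AlkB, and 69.4%, 19.5% and 58.7% in knockdown and 2.49%, 7.47% and 3.6% in vector without it, a change of -3.10 (SE 0.76, limma adjusted p = 0.0413). The shared end means that reads of both genes may not be independent.

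Tyr-GTA-5-5 and Tyr-GTA-7-1 changed by -2.89 and -3.19 on the same scale without passing the threshold (limma adjusted p = 0.0711 for each). Tyr-GTA-8-1 differed in the other direction, by 5.29 (limma adjusted p = 0.0711 without a block). Its untreated reads at position 58 were 0.476%, 17.4% and 7.11% of those at the 3′ end in knockdown and 47.0%, 65.5% and 99.7% in vector. Its last 14 bases are those of Tyr-GTA-5-4, and next to position 58 it differs by T59A, with the base of Tyr-GTA-5-4 first and standard tRNA positions. With each of the 12 libraries left out in turn, the pair was called in 2 settings, those without untreated replicate 2 of knockdown or of vector, and missed the threshold in 10, with adjusted p of up to 0.127. Its change stayed between -3.37 and -2.57 for Tyr-GTA-5-4 and between -3.67 and -2.75 for Tyr-GTA-2-1. Depth was low in places: untreated knockdown replicate 1 had 43 reads at the 3′ end of Tyr-GTA-5-4 and 36 at that of Tyr-GTA-2-1, and untreated vector replicate 2 had 29 at that of Tyr-GTA-8-1.

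**Figure D5:**
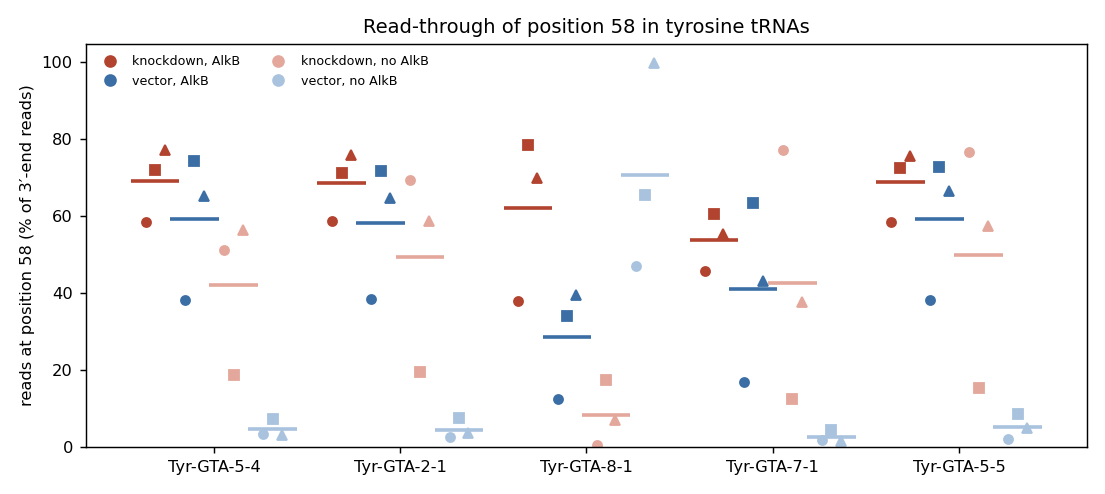
Reads at position 58 as a percentage of reads at the 3′ end (y axis) for 5 tyrosine tRNA genes (x axis), from left to right AlkB-treated knockdown, AlkB-treated vector, untreated knockdown and untreated vector libraries; circle, square and triangle are replicates 1, 2 and 3 and bars are means. In untreated Tyr-GTA-5-4 knockdown spans 18.6% to 56.4% and vector 3.10% to 7.33%, while the treated libraries of both lines overlap.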

How the data were processed

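Small RNA of WPMY-1 cells was measured by m1A-MAP-seq. The submitters' processing notes name the build hg38 and the tools Bowtie2 2.2.4, SAMtools 1.3.1 and cutadapt 1.9.3; parameters and the rule for listing sites were not stated in the sources used here. The authors deposited, per the file headers, counts of covering and mismatched reads per adenosine, not normalised. The deposited mismatch rates, a fraction, and the authors' fold ratio were not used, nor were 6 columns of differences. A further 19 lines are not analysed here. Sites were classed by distance from the 3′ end and gene numbering. Mismatch was tested where every library had 20 reads or more by a quasi-binomial model, coverage with edgeR 4.0.16 (DESeq2 1.42.0 as an alternative), and read-through as log2 with a pseudocount of 0.5 and limma 3.58.1, in R 4.3.3, at an adjusted p of 0.05, two-sided. Of 372 such sites, 13 without a mismatch could not be tested. The tests were tried on simulated data.

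Site reads per library ranged from 115571 to 848566, and intervals cover counting error only, since reads carry no molecular identifiers. Every pair of replicates differed beyond counting noise (chi-square per degree of freedom 54.5 to 238). Same-numbered knockdown and vector libraries did not deviate together (correlations -0.0677 to 0.0106 for reads and -0.110 to 0.0404 for mismatch), so no pairing was used. RefSeq lists a tRNA gene with equal coordinates for 172 of 180 genes. Members and lists were chosen with earlier results of these data known. Sites were named by rule: up to 6 per direction by smallest p, the 10 deepest position-58 sites, the 8 with the highest mismatch, position-9 and wobble sites, and up to 6 tRNAs per direction by read-through. Families below the threshold, Gly-GCC-2-1, Ala-TGC-3-2 and the parts of the tRNA were described after their values were seen.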

Additional observations from a re-analysis of the deposited data

Results flagged for a closer look

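The change of the knockdown difference by AlkB treatment was tested as an interaction and passed the threshold in 2 tyrosine tRNAs, both given above with every library. For Tyr-GTA-5-4 it was -2.85 on the log2 scale and for Tyr-GTA-2-1 -3.10 (limma adjusted p = 0.0413 for each). Both were also called with a block for each IP (adjusted p = 0.0466) but not with the replicate number as the block (adjusted p = 0.0639), nor in 10 of 12 settings that left out 1 library. In both genes the knockdown libraries lay above the vector libraries without AlkB and overlapped them after it. The 3′-end depth of untreated knockdown replicate 1 was low, with 43 and 36 reads. Without that library the change was -2.63 for Tyr-GTA-5-4 and -2.76 for Tyr-GTA-2-1 (limma adjusted p = 0.0656 for each). Tyrosine tRNAs did not share 1 direction: Tyr-GTA-8-1 changed by 5.29 (limma adjusted p = 0.0711 without a block). It was called with a block for each IP (limma adjusted p = 0.0466) and with the replicate number as the block (limma adjusted p = 0.0454). It too missed the threshold in 10 of the 12 settings. Any part of read depth in the result was not tested. No group has enough libraries for a test of single outlying samples.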

How the results depend on the processing

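Of 108 values recomputed under alternative settings, 80 stayed the same, 23 counts of calls moved and 5 differences changed sign. A count of calls was taken as the same where it was equal or close, whichever members were called. A difference was the same where it kept its sign and its side of the threshold. For mismatch per site, holding the dispersion at 1 or more gave 0 calls, with a lowest quasi-binomial adjusted p of 0.975. For mismatch per site, a minimum of 100 reads gave 1 call (A107 of Leu-CAA-3-1, quasi-binomial adjusted p = 0.0413), and omitting any 1 library left from 0 to 2 calls: 2 where knockdown replicate 3 was out (A107 of Leu-CAA-3-1 and A20 of Pro-CGG-2-1) and 1 where vector replicate 1 was out (A58 of Thr-TGT-6-1). For coverage, DESeq2 called 3 sites and 3 families, and leaving out 1 library gave 0 to 30 site calls. The AlkB-dependent change gave 0 calls with a 3′-end minimum of 100 reads, a filter that takes out the tyrosine genes named and so says nothing about them. With 1 replicate number left out of all 4 groups it gave 0 to 4 calls (0 without 1, 4 without 2, 0 without 3), and with 1 library left out 0 to 5. With the replicate block it gave 1 call, Tyr-GTA-8-1, and with a block for each IP 3; the replicate-number block called 0 sites for mismatch (306 of 359 could be fitted), 0 for coverage and 0 for read-through, and changed no other call. The position-58 median difference of 0.0685 points became -0.0178 with reads pooled over sites (0.0106 to 0.139 with 1 library left out). For other positions the median difference of 0.0244 points ranged from -0.00804 to 0.135 with 1 library left out. For summed read-through the difference was -4.72 points over 66 tRNAs and 1.39 with the tRNA mix held over 44 of them. Over the 66 it was -12.9 to 1.57 with 1 library left out, the upper end without knockdown replicate 3. The cause of these moves was not tested.

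With 3 libraries a line, the smallest exact p between lines is 0.1. Mismatch near 0.6% rests on few reads in the shallow libraries: the 58 position-58 sites held 91 mismatched reads in knockdown replicate 3 and 89 in vector replicate 1. Counts end near 8000 reads a site in 2 AlkB-treated knockdown libraries and in untreated IP libraries of both lines, where a cap is inferred. Measures by part of the tRNA, within-library comparisons steps between neighbouring bases, the block for each IP and the single-library omissions were chosen after seeing the data.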
